A study of Homo sapiens with 6 samples.

Results

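The mitochondrial ribosomal protein genes were taken as the rows of the count table that carry the type mRNA and a symbol starting with MRPL or MRPS and a number. This rule found 76 genes among the 40173 rows of the table, of which 19756 are of the type mRNA. By symbol, 47 genes belong to the large subunit (MRPL) and 29 to the small subunit (MRPS) of the mitochondrial ribosome. RNA-Seq was performed on the A549 line, derived from a human lung adenocarcinoma, a day after transfection with an siRNA targeting the long noncoding RNA FAM83H-AS1 (silenced group) or with a negative control (control group). There were 3 libraries per group, both groups were the same line at the same time point, and the sources used here do not say which of the study's siRNAs was used. The question addressed was which transcripts changed after silencing, here asked for the large and the small subunit side by side.

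Mitochondrial ribosomes translate the few proteins that the mitochondrial genome encodes, all of them subunits of the oxidative phosphorylation machinery. Their ribosomal RNAs are made inside the mitochondrion, while every one of their proteins is encoded in the nucleus, translated in the cytosol and imported. Compared with bacterial ribosomes they have lost much RNA and gained proteins, so that a set of conserved proteins with bacterial homologs is joined by mitochondria-specific ones. The symbols follow the subunit in most cases, with exceptions: the products of MRPS30 and MRPS18A sit in the large subunit, and MRPS36 encodes a component of the 2-oxoglutarate dehydrogenase complex.

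Transcripts for mitochondrial ribosomal proteins were lower in silenced cells, to a similar degree in both subunits. Of the 76 genes, 24 were lower in silenced cells at an adjusted p under 0.05 (edgeR quasi-likelihood test, Benjamini-Hochberg adjustment over 15250 tested genes), which is 31.6% of them, whereas 8.27% of all tested genes were lower by the same rule. Restricted to tested genes of the type mRNA, the share called lower was 9.12%. No gene of the set was called higher, against 8.75% of all tested genes. At an unadjusted p under 0.05, 39 were lower and 0 higher in edgeR, where 2405 of all 15250 tested genes were lower and 2489 higher. DESeq2 called 26 of the set lower and 0 higher, and its count over all genes is not given here. The log2 fold change was below 0 for 66 genes, with a median of -0.24, that is 84.9% of the control level, and a range from -0.83 to 0.26. The median over all tested genes was -0.00067. All changes were under a fold of 2, so that 0 genes of the set passed the additional threshold of a 2-fold change, which 2.14% of tested genes passed in either direction.

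The 3 silenced libraries were all below the 3 control libraries for 36 genes, or 47.4%, compared with 17.5% of all tested genes. These 36 included each of the 24 called genes and 12 more that did not pass the adjusted threshold. The number of calls depended on single libraries: it was 15 without control replicate 1, 15 without control replicate 2, 18 without control replicate 3, 10 without silenced replicate 1, 14 without silenced replicate 2 and 20 without silenced replicate 3. The median log2 fold change lay between -0.25 and -0.21 in these 6 fits.

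**Figure D1:**
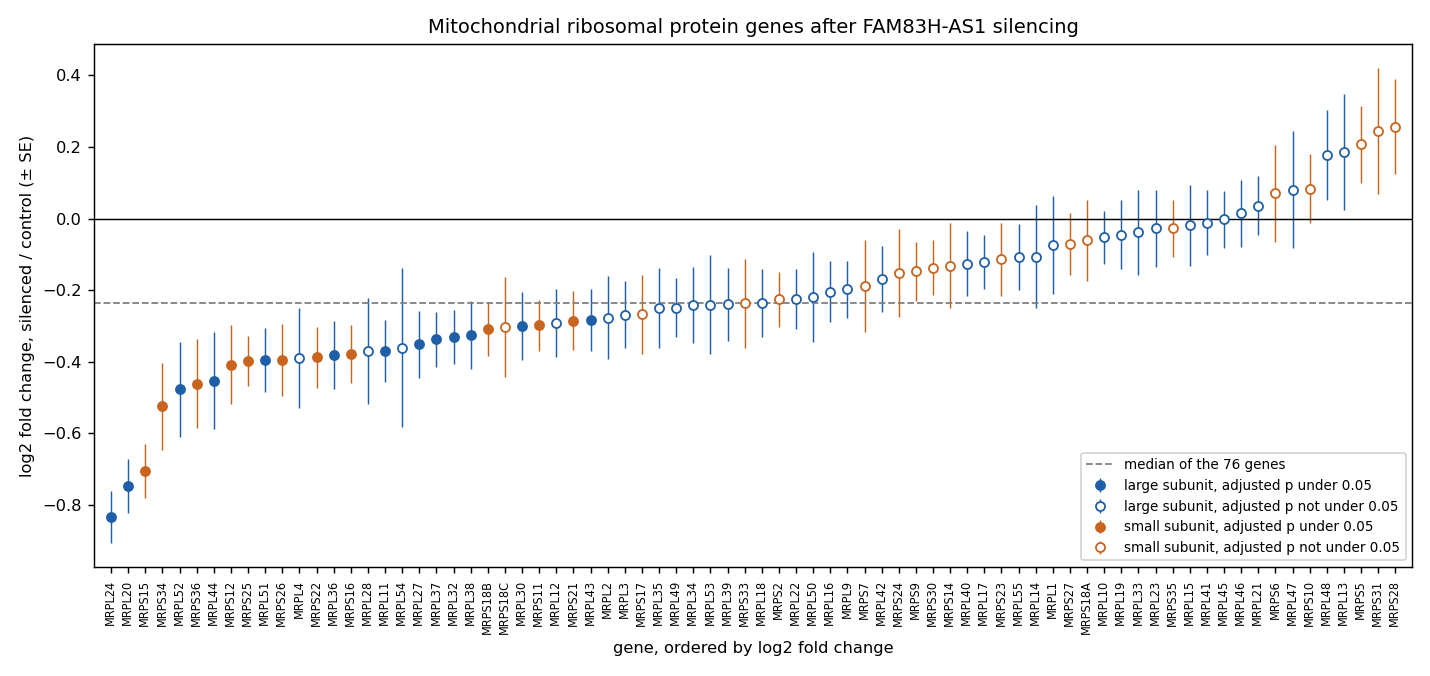
Log2 fold change (silenced over control) with its standard error for each of the 76 genes, ordered from the lowest to the highest value; blue stands for the large and orange for the small subunit by symbol, filled points passed an adjusted p under 0.05, and the dashed line is the median of the set at -0.24. MRPL24, MRPL20 and MRPS15 lie apart at the lower end, the filled points continue to MRPL43 at -0.28, and 10 genes lie above 0 with no filled point among them.

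The libraries themselves were checked first. FAM83H-AS1 had 14.5, 15.98 and 17.3 CPM (counts divided by the library's size and multiplied by 1e6, scaled to the TMM-normalized library size) in control replicates 1, 2 and 3, and 4.59, 4.44 and 5.57 CPM in silenced replicates 1, 2 and 3. Its log2 fold change was -1.70 (SE 0.148, edgeR adjusted p = 7.99e-05). Library totals were between 9738291 and 17742643 counts, and each of the 76 genes had at least 76 counts in every library, so that all passed the filter on low counts. Control replicate 3 stood apart, since RNA5-8SP6, an rRNA pseudogene, took 3.22% of its counts and between 0.241% and 0.448% elsewhere. Among epithelial markers, the keratins KRT8 and KRT18 were abundant (KRT18 was lower in silenced cells, log2 fold change -0.43, edgeR adjusted p = 0.00266), while EPCAM had 32 to 59 counts and KRT19 and CDH1 between 5 and 19 counts per library. Of 7 markers of other cells, PTPRC, CD3E, COL3A1 and PECAM1 had at most 13 counts in any library, COL1A1 and VWF were not called, and CD68, which epithelial lines can express, was higher in silenced cells (log2 fold change 0.88, edgeR adjusted p = 9.93e-05); the part of these markers in the results was not tested. In RNA from whole cultures, fewer cells of one kind and less RNA per cell cannot be told apart. No source states whether the 3 libraries of a group came from separate cultures, so the p-values measure the spread between these libraries.

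Promoter sequences of the genes with the largest decreases are shown here, because co-regulated nuclear genes for mitochondrial proteins are known for binding sites of NRF1, of ETS factors such as GABP, and of YY1 close to the start site. The sequences are RefSeq promoters on GRCh38.p14, each running 5′ to 3′ on the strand of its gene from 200 bases before to 30 bases after the start. They lie at chr1:156741059-156741288 (minus strand), chr1:1407264-1407493 (minus strand), chr1:36464355-36464584 (minus strand), chr16:1773105-1773334 (minus strand) and chr14:22829687-22829916 (plus strand). Capitals mark exact matches, on either strand, to the NRF1 core GCGCATGC, the ETS word CCGGAAG and the YY1 word AAGATGG, which do not overlap each other in these sequences.
MRPL24: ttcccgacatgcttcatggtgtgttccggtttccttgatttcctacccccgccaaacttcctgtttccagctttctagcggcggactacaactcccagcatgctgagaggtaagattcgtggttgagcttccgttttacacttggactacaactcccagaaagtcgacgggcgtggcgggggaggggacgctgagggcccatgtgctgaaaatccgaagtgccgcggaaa
MRPL20: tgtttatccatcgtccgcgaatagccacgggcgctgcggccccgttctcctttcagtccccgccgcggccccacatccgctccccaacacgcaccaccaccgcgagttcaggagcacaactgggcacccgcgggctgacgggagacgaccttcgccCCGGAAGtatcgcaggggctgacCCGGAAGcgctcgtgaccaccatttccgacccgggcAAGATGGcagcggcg
MRPS15: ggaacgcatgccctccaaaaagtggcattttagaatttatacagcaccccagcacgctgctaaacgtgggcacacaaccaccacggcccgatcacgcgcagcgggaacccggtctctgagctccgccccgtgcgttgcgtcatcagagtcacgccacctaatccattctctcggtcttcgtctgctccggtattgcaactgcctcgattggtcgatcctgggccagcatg
MRPS34: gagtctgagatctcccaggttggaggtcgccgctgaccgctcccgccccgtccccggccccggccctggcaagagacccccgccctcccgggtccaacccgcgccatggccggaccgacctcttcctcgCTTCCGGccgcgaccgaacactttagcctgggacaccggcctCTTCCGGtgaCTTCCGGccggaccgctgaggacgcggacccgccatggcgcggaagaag
MRPL52: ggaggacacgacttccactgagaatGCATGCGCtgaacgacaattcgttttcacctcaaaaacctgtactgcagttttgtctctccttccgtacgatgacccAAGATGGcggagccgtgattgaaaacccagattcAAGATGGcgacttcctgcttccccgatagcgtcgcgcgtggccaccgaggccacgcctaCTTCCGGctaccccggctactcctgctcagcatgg

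The promoters of MRPL24 and MRPS15, among the 3 genes with the largest decreases, held none of the 3 words. The MRPL20 promoter held the ETS word at -44 and -21 and the YY1 word at 15, counted with the start base as 0. In the MRPS34 promoter the ETS word stood on the opposite strand at -71, -29 and -19. In MRPL52 the NRF1 core was at -175, the YY1 word at -98 and -64 and the ETS word at -5.

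Over windows of 300 bases (250 before to 50 after the start), 68 of the 76 genes had a RefSeq promoter. The ETS word was in 41.2% of them, compared with 10.7% of all 27305 promoters of the table and 19.4% of the 9499 promoters of tested mRNA genes. The YY1 word was in 33.8% of the set, 6.06% of all promoters and 7.67% of those of tested mRNA genes. For the NRF1 core the shares were 8.82%, 3.27% and 5.65%. The NFY word CCAAT (29.4%, 35.7% and 37.1%) and the SP1 word GGGCGG (61.8%, 44.6% and 70.9%) were less frequent in the set than in tested mRNA genes. For the large and the small subunit, the ETS word was in 16 of 40 and 12 of 28 promoters, the YY1 word in 14 and 9, the NRF1 core in 4 and 2, the NFY word in 11 and 9, and the SP1 word in 22 (55.0%) and 20 (71.4%). Among the 24 called genes the ETS word was in 54.2% of promoters and the YY1 word in 41.7%, against 34.1% and 29.5% of the 44 promoters of genes not called. These are matches of letters in a fixed window and were not tested against the fold changes.

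The large subunit held the 2 genes with the largest decreases. MRPL24, whose product sits at the rim of the polypeptide exit tunnel and has a bacterial homolog that starts large subunit assembly, had 94.4, 94.1 and 96.3 CPM in control replicates 1, 2 and 3 and 56.0, 52.3 and 51.5 CPM in silenced replicates 1, 2 and 3. The groups were far apart compared with the spread within either one. The level of MRPL24 dropped by 43.9%, with a log2 fold change of -0.83 (SE 0.0728, edgeR adjusted p = 8.05e-05). MRPL20, a conserved protein that binds the large ribosomal RNA early in assembly, had 69.5, 66.5 and 68.6 CPM in control and 39.4, 39.1 and 43.2 CPM in silenced libraries. Again no libraries overlapped, and the log2 fold change was -0.75 (SE 0.0759, edgeR adjusted p = 0.000206).

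Further down the list were MRPL52 and MRPL44, both mitochondria-specific proteins. MRPL52 had 47.8, 37.3 and 35.7 CPM in control and 30.8, 24.1 and 31.4 CPM in silenced libraries, with a log2 fold change of -0.48 (SE 0.132, edgeR adjusted p = 0.0313). Control replicate 1 stood above the other control libraries, and the call was lost without control replicate 1 (adjusted p = 0.0922), control replicate 2 (0.0523), silenced replicate 1 (0.0663) or silenced replicate 2 (0.0830) in edgeR. MRPL44, which carries a ribonuclease III-like fold and is mutated in an inherited cardiomyopathy, had 13.5, 18.5 and 16.9 CPM in control and 11.5, 12.6 and 11.7 CPM in silenced libraries. Its log2 fold change was -0.45 (SE 0.135, edgeR adjusted p = 0.0409). It kept the call without control replicate 1 and lost it without any other library, with edgeR adjusted p between 0.0601 and 0.139. The call of MRPL44 was also lost in DESeq2 (adjusted p = 0.0686) and with library size only in edgeR (0.0595).

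The stalk of the large subunit, which recruits translation factors, was mixed. MRPL11, at the base of the stalk, was the 1 called gene of 5, and the median log2 fold change of the 5 was -0.29. MRPL11 had 97.9, 108 and 118 CPM in control and 79.9, 88.0 and 83.1 CPM in silenced libraries, a log2 fold change of -0.37 (SE 0.0859, edgeR adjusted p = 0.0150), and lost its call without silenced replicate 1 (edgeR adjusted p = 0.0775). MRPL12, the flexible stalk protein that also binds the mitochondrial RNA polymerase, had 113, 92.5 and 100 CPM in control and 87.6, 74.3 and 87.6 CPM in silenced libraries. All its silenced libraries were below all control libraries, and the adjusted threshold was missed (log2 fold change -0.29, SE 0.0959, edgeR adjusted p = 0.0590). MRPL12 was called lower in DESeq2 (adjusted p = 0.0346) and in edgeR with mRNA rows only (0.0391) or with all genes of at least 1 count (0.00967). MRPL10, which anchors MRPL12 on the ribosome, had 68.2, 67.5 and 67.5 CPM in control and 61.8, 64.3 and 69.5 CPM in silenced libraries, which overlapped (log2 fold change -0.05, SE 0.0749, edgeR adjusted p = 0.668).

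At the exit tunnel rim, where the new chain leaves the ribosome, MRPL24 was the 1 called gene of 6 and the median was -0.07. MRPL45, which helps to hold the ribosome at the inner membrane, had 59.2, 64.6 and 58.1 CPM in control and 60.0, 64.1 and 57.6 CPM in silenced libraries. These values were interleaved, with a log2 fold change of -0.0019 (SE 0.0792, edgeR adjusted p = 0.990). The central protuberance, the crown of the large subunit, had 2 called genes of 7 (MRPL27 and MRPL38) and a median of -0.13. The other 31 large subunit genes included 9 called genes and had a median of -0.24. MRPL41 was near 0 with 51.3, 42.1 and 45.6 CPM in control and 47.6, 46.9 and 43.4 CPM in silenced libraries (log2 fold change -0.01, SE 0.0902, edgeR adjusted p = 0.952).

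In the small subunit, MRPS15 and MRPS34 changed most. MRPS15, a conserved protein that binds the small ribosomal RNA and faces the large subunit, had 147, 153 and 137 CPM in control and 89.8, 85.4 and 92.5 CPM in silenced libraries. No libraries overlapped, and the level dropped by 38.7% (log2 fold change -0.70, SE 0.0753, edgeR adjusted p = 0.000259). MRPS34, a mitochondria-specific protein whose loss of function causes Leigh syndrome, had 211, 166 and 151 CPM in control and 132, 108 and 127 CPM in silenced libraries. Its control libraries were widely spread, and the log2 fold change was -0.52 (SE 0.122, edgeR adjusted p = 0.0149).

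The small subunit genes of the mRNA channel and decoding site numbered 7, of which 3 were called, with a median log2 fold change of -0.28. MRPS12, the conserved protein that lines the decoding site, had 64.0, 50.4 and 52.8 CPM in control and 46.2, 36.9 and 42.7 CPM in silenced libraries (log2 fold change -0.41, SE 0.110, edgeR adjusted p = 0.0288). The call of MRPS12 was lost without control replicate 1, silenced replicate 2 or silenced replicate 3, with edgeR adjusted p of 0.0828, 0.0806 and 0.0579. In GENCODE 29, exons of MRPS12 share 349 bases with SARS2, the mitochondrial seryl-tRNA synthetase gene on the opposite strand, which was also lower (log2 fold change -0.52, edgeR adjusted p = 0.0322). Whether the counting used strand is not stated, and the part of this overlap in either value was not tested.

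The head of the small subunit, which moves the tRNAs and mRNA along, had 0 called genes of 7 in edgeR, 0 of them also at an unadjusted p under 0.05 and in DESeq2, and a median of -0.13. The remaining 12 small subunit genes had 7 called genes and a median of -0.34, the lowest of these structural groups with several genes. They include MRPS25, MRPS26, MRPS22, MRPS16 and MRPS18B, and mutations of MRPS16 and MRPS22 are known causes of inherited defects of mitochondrial translation. The classes are small, and differences between them were not tested.

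MRPS18A, MRPS18B and MRPS18C are paralogs whose products occupy different places in the ribosome. MRPS18B, in the small subunit, had 120, 128 and 137 CPM in control and 104, 101 and 107 CPM in silenced libraries. With no overlap, its log2 fold change was -0.31 (SE 0.0761, edgeR adjusted p = 0.0193), though the call was lost without control replicate 2 (adjusted p = 0.0507), control replicate 3 (0.0623), silenced replicate 1 (0.0789) or silenced replicate 2 (0.0504). MRPS18C, the paralog in the position of the bacterial protein, had 14.4, 17.01 and 12.5 CPM in control and 11.5, 12.8 and 11.2 CPM in silenced libraries, which overlapped (log2 fold change -0.30, SE 0.139, edgeR adjusted p = 0.159). MRPS18A, in the large subunit, had 94.4, 76.01 and 67.5 CPM in control and 73.7, 72.5 and 80.9 CPM in silenced libraries. These overlapped too, with a log2 fold change of -0.06 (SE 0.114, edgeR adjusted p = 0.754). The differences between the paralogs were not tested.

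MRPS30, a large subunit protein despite its symbol, had the highest mean level per library, with 180, 169 and 185 CPM in control and 168, 149 and 169 CPM in silenced libraries. The groups touched at control replicate 2, and the log2 fold change was -0.14 (SE 0.0766, edgeR adjusted p = 0.242). MRPS36, which is no part of the ribosome, had 12.2, 13.99 and 12.5 CPM in control and 9.67, 9.15 and 9.29 CPM in silenced libraries (log2 fold change -0.46, SE 0.125, edgeR adjusted p = 0.0287). Its call was kept without control replicate 1 and lost without each of the other libraries, with edgeR adjusted p between 0.0524 and 0.0959, and DESeq2 did not call it. The rows of its pseudogenes sum to 22.9% of its counts, so reads may have been divided between copies.

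**Figure D2:**
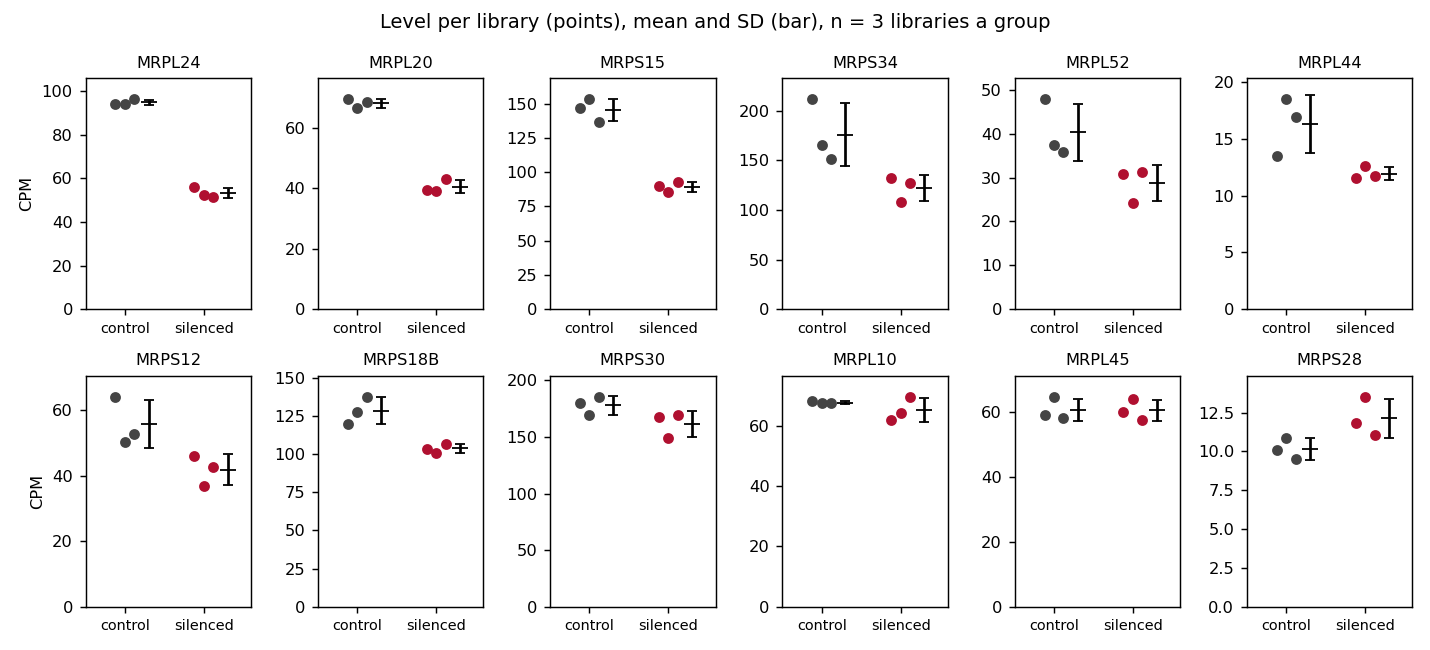
CPM in each library for 12 genes of the set, with axes that start at 0; grey points are control and red points silenced libraries, and the bar beside them gives the mean and SD of 3 libraries. MRPL24, MRPL20 and MRPS15 show wide gaps between the groups, MRPL52, MRPL44 and MRPS12 narrow ones, MRPS30, MRPL10 and MRPL45 overlap, and MRPS28 is higher in the silenced libraries.

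The other called genes were, in order of their log2 fold changes, MRPS25 (-0.40), MRPL51 (-0.40), MRPS26 (-0.39), MRPS22 (-0.39), MRPL36 (-0.38), MRPS16 (-0.38), MRPL27 (-0.35), MRPL37 (-0.34), MRPL32 (-0.33), MRPL38 (-0.33), MRPL30 (-0.30), MRPS11 (-0.30), MRPS21 (-0.28) and MRPL43 (-0.28), all named here because they complete the count. MRPS25 was the most even of them, with 116, 114 and 117 CPM in control and 89.3, 85.8 and 89.1 CPM in silenced libraries (SE 0.0686, edgeR adjusted p = 0.00380). MRPL43 was called in 0 of the 6 edgeR fits that left out a library. MRPL37 and MRPS22 lost the call without silenced replicate 1 (edgeR adjusted p = 0.0667 and 0.0565), and MRPS11 without that library or control replicate 1 (0.0815 and 0.0504). MRPL36 lost it without control replicate 1, silenced replicate 1 or silenced replicate 2, with edgeR adjusted p from 0.0505 to 0.0610. MRPL27 lost it without replicate 1 or 2 of either group, MRPS26 without control replicate 1 or 2 or silenced replicate 2 or 3, and MRPL30 without control replicate 2 or 3 or silenced replicate 1 or 3. MRPL38 kept it only without control replicate 2, and MRPS21 only without silenced replicate 3. By contrast, MRPL20, MRPL24, MRPL32, MRPL51, MRPS15, MRPS16, MRPS25 and MRPS34 were called in all 6 of these fits and in the 8 fits with another tool, scaling, filter or design.

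At the upper end, 10 genes had a log2 fold change above 0. The highest were MRPS28 (0.26), MRPS31 (0.24) and MRPS5 (0.21), of which MRPS28 and MRPS5 were picked after their values were seen. MRPS28, near the mRNA exit site, had 10.1, 10.9 and 9.52 CPM in control and 11.8, 13.5 and 11.1 CPM in silenced libraries. It was the 1 gene of the set with every silenced library above every control library, and it did not pass the test (SE 0.133, edgeR adjusted p = 0.211). MRPS31, in the head of the small subunit and with the lowest mean level, had 7.81, 10.02 and 10.2 CPM in control and 9.08, 13.8 and 10.6 CPM in silenced libraries (SE 0.176, edgeR adjusted p = 0.371). Rows named as copies of MRPS31 sum to 71.3% of its counts, so its level is uncertain.

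Summed over genes, both subunits dropped by nearly the same share. The 47 large subunit genes together had 2916, 2862 and 2781 CPM in control replicates 1, 2 and 3 and 2405, 2318 and 2503 CPM in silenced replicates 1, 2 and 3, so that silenced cells had 84.4% of the control level. The 29 small subunit genes together had 2219, 2140 and 2107 CPM in control and 1832, 1780 and 1882 CPM in silenced libraries, which is 85.0%. In both subunits each silenced library was below each control library. The ratio of the large to the small sum was 1.32 ± 0.0122 (SD, n = 3) in control and 1.31 ± 0.0142 (SD, n = 3) in silenced libraries, and the groups overlapped.

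**Figure D3:**
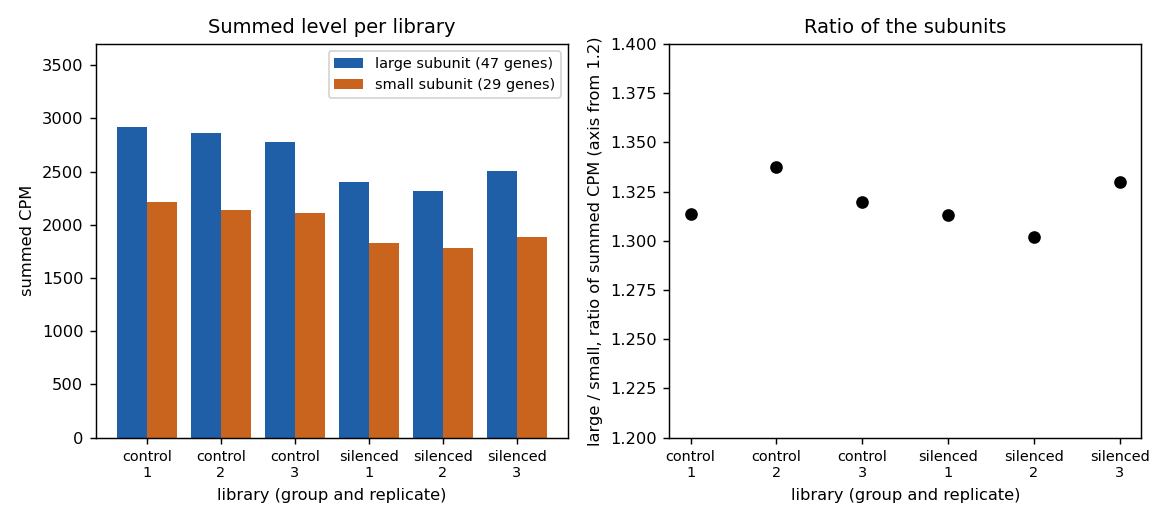
Left, the summed CPM of the large (blue) and small (orange) subunit genes in each of the 6 libraries, with the axis starting at 0; right, the ratio of the large to the small sum in each library, on an axis from 1.2 to 1.4. Both sums are lower in the 3 silenced libraries, while the ratio lies between 1.30 and 1.34 in all 6 with the groups intermixed.

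By single genes, 13 of 47 large subunit genes (27.7%) and 11 of 29 small subunit genes (37.9%) were called lower, with medians of -0.24 and -0.23. The difference of the medians, large minus small, was -0.01, and it was not tested because genes are not replicates. Sorting by structure in place of symbol left 13 of 49 large and 10 of 26 small subunit genes, again with medians of -0.24 and -0.23. Split by origin, 12 of 46 genes with a bacterial homolog and 11 of 29 mitochondria-specific genes were called, with medians of -0.22 and -0.24.

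Levels per length varied widely among the genes. Per kilobase of the principal transcript, mean control levels ran from 2.65 CPM for MRPL42, whose principal transcript has 15582 bases, to 172 CPM for MRPS34. In this transcript of MRPL42, 14992 bases are 3′-UTR, and the gene has 5 protein-coding transcripts. The mean control level of MRPL42 was 41.3 CPM, so its low value per kilobase depends on the transcript taken. The medians of the subunits were close, at 40.9 CPM per kilobase for large and 39.0 for small subunit genes. Called genes had a higher median control level, 83.2 CPM against 44.7 CPM for the genes not called, and their median SE was 0.0864 against 0.106. The levels overlapped: MRPS36 (12.9 CPM) and MRPL44 (16.3 CPM) were called, while MRPS30 (178 CPM) and MRPL17 (163 CPM) were not. Across the 76 genes the Spearman correlation of log2 fold change and control level was -0.31, as a description over genes measured in the same 6 libraries.

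Transcript length and base composition were compared because fold changes moved with both across the table. The genes of the set have short transcripts, with a median of 1458.5 bases against 3198 bases for tested mRNA genes. In tested mRNA genes the median log2 fold change was -0.16 for transcripts under 1000 bases, -0.06 from 1000 to 2000, 0.0010 from 2000 to 4000 and 0.06 above 4000 bases. In the same classes the genes of the set had medians of -0.19 (14 genes), -0.24 (47 genes), -0.22 (11 genes) and -0.20 (4 genes). In the shortest class the set was thus close to other mRNAs of its length, and in the other classes it was below them. The Spearman correlation of log2 fold change with GC content was -0.28 over the 76 genes and -0.22 over 11557 tested mRNA genes, and the median GC content was 49.6% and 49.8%. The part of length and GC content in the change of the set was not tested.

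**Figure D4:**
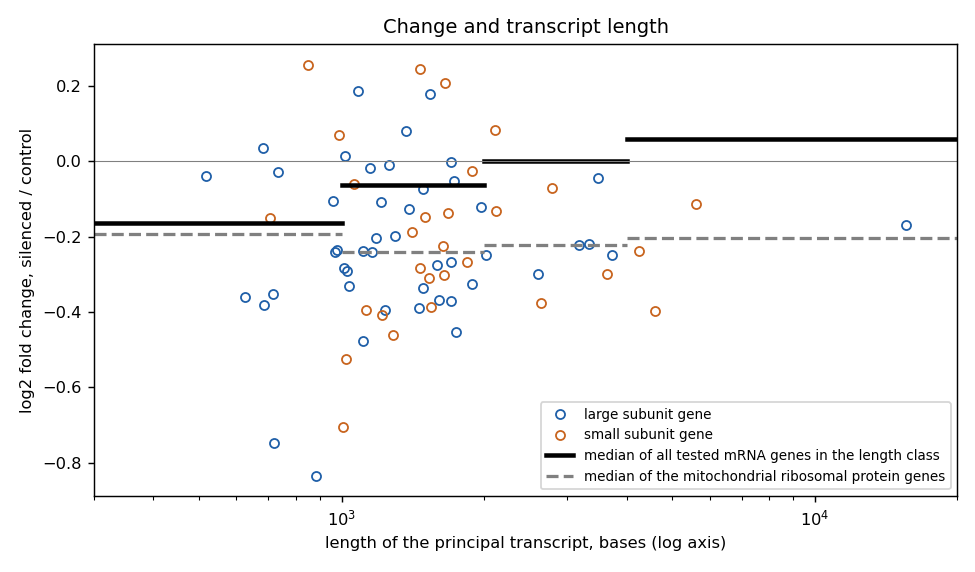
Log2 fold change (silenced over control) of the 76 genes against the length of the principal transcript in bases, on a log axis; blue circles are large and orange circles small subunit genes, black lines are medians of all tested mRNA genes in 4 length classes and dashed grey lines those of the 76 genes. The black lines climb from -0.16 to 0.06 with length, and the dashed lines stay between -0.24 and -0.19.

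Among the genes, 41 share exon bases with another gene in GENCODE 29, 29 of them with a gene on the opposite strand. Of the 24 called genes, 10 had no such overlap. Among tested genes that overlap a called gene on the opposite strand, only SARS2 was called lower. PELI3, PSMA2, CYB5RL, SSBP3, SEMA4G, NCAPD2 and NR2C2 were not called, with log2 fold changes from -0.12 to 0.26. COPB2, which overlaps MRPS22, was higher (log2 fold change 0.25, edgeR adjusted p = 0.0394). MRPS24 and the read-through gene URGCP-MRPS24 had almost the same counts, with 1259 and 1247 counts in control replicate 1 and 1474 and 1468 in silenced replicate 3, so reads of this locus appear in both rows. In the 3′-UTRs, the word CCAATAA, looked at because of earlier results of these data, was in 8 genes of the set (10.5%) and in 12.7% of tested mRNA genes. It was in 5 of the 24 called genes (20.8%), MRPL24 and MRPL20 among them, and in 5.77% of the genes not called. In MRPL24, MRPL44, MRPL54 and MRPS11 the word lay near the end of the 3′-UTR, where the next base made it run into AATAAA. It began there at base 72 of 93, 651 of 680, 144 of 172 and 2773 of 2794. The median log2 fold change was -0.37 for the 8 genes with the word and -0.22 for the others. Over tested mRNA genes these medians were -0.08 with the word and 0.01 without it. They were -0.33 and -0.17 in cytosolic ribosomal protein genes, and -0.16 and -0.22 in nuclear-encoded oxidative phosphorylation subunit genes. The part of the word in the changes was not tested.

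Of 7 proteins of the mitochondrial ribosome with other symbols, 3 were called lower and 0 higher by edgeR and by DESeq2, with a median of -0.31 (4 lower and 1 higher at an unadjusted p under 0.05 in edgeR). The share called lower in edgeR was 42.9% of these few genes, against 8.27% of all tested genes. GADD45GIP1, a large subunit protein at the tunnel exit, had 80.9, 59.6 and 65.04 CPM in control and 40.7, 28.4 and 47.9 CPM in silenced libraries (log2 fold change -0.80, SE 0.166, edgeR adjusted p = 0.00909). ICT1, a peptidyl-tRNA hydrolase built into the large subunit, and CHCHD1, a small subunit protein, also fell, with log2 fold changes of -0.32 and -0.31. In edgeR, ICT1 lost its call without control replicate 2 or 3 or silenced replicate 1 or 2 (adjusted p up to 0.122), and CHCHD1 without control replicate 1 or any silenced replicate (up to 0.0827). AURKAIP1 had a log2 fold change of -0.41 with a wide spread (SE 0.166, edgeR adjusted p = 0.115), and it was called with all genes of at least 1 count (edgeR adjusted p = 7.18e-05). The small subunit GTPase DAP3 (0.20), the RNA-binding PTCD3 (0.13) and MRP63 (-0.06) were not called either.

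The ribosomal RNAs themselves were read from the rows RNR1 and RNR2. RNR1, the small subunit rRNA, had 2098, 3318 and 5355 CPM in control and 2002, 2453 and 2657 CPM in silenced libraries. The control values spread over more than the difference between groups, and control replicate 3, which also had the high share of the rRNA pseudogene, was the highest. RNR1 was not called (log2 fold change -0.60, SE 0.251, edgeR adjusted p = 0.126), and neither was RNR2, the large subunit rRNA (log2 fold change 0.16, SE 0.104, edgeR adjusted p = 0.327). Of all 15 transcripts of mitochondrial DNA, 0 were lower and 1 was higher in edgeR (6.67%, against 8.75% of all tested genes), with a median of 0.06. At an unadjusted p under 0.05, 2 were lower and 2 higher, and DESeq2 called 1 lower and 1 higher. The higher one in edgeR was ND2, a subunit of complex I, at a log2 fold change of 0.23 (edgeR adjusted p = 0.0494), and its call was lost without each library but silenced replicate 3, with adjusted p up to 0.162.

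Assembly factors of the mitochondrial ribosome had 4 of 26 genes lower and 0 higher by edgeR and by DESeq2, with a median of -0.17 (7 lower and 0 higher at an unadjusted p under 0.05 in edgeR). The share called lower in edgeR was 15.4%, against 8.27% of all tested genes. MPV17L2, needed for large subunit assembly, had 32.7, 29.3 and 25.2 CPM in control and 17.6, 18.3 and 17.4 CPM in silenced libraries (log2 fold change -0.70, SE 0.112, edgeR adjusted p = 0.00253). NDUFAB1, the mitochondrial acyl carrier protein, which binds the maturing large subunit and is also a complex I subunit, had a log2 fold change of -0.59 (SE 0.114, edgeR adjusted p = 0.00623). NSUN4, which methylates the small subunit rRNA and takes part in joining the subunits, had a log2 fold change of -0.34 (SE 0.0848, edgeR adjusted p = 0.0200), and between 0.0546 and 0.0829 without control replicate 2, control replicate 3 or silenced replicate 1.

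The translation factors had 1 of 13 genes lower, the elongation factor TUFM, with 0 higher by edgeR and by DESeq2, 0 higher also at an unadjusted p under 0.05, and a median of -0.07. The share lower was 7.69%, against 8.27% of all tested genes. TUFM had 469, 468 and 481 CPM in control and 409, 398 and 413 CPM in silenced libraries (log2 fold change -0.22, SE 0.0625, edgeR adjusted p = 0.0363), and lost the call without each library in turn, with adjusted p between 0.0610 and 0.118. Mitochondrial tRNA synthetases had 3 of 17 lower and 1 higher in edgeR, with a median of -0.15. These shares were 17.6% and 5.88%, against 8.27% lower and 8.75% higher among all tested genes. DESeq2 called 2 lower and 1 higher, and 5 were lower and 1 higher at an unadjusted p under 0.05 in edgeR. NARS2 (log2 fold change -0.55) and SARS2 (-0.52) were lower, with edgeR adjusted p of 0.00989 and 0.0322. In edgeR, SARS2 lost its call without control replicate 1 or any silenced replicate (adjusted p up to 0.0915).

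Factors that process and stabilize mitochondrial RNA had 1 of 16 lower and 1 higher, with a median of -0.05. That is 6.25% in each direction, against 8.27% lower and 8.75% higher among all tested genes. ELAC2, which cuts the 3′ ends of mitochondrial tRNAs, had a log2 fold change of -0.35 and LRPPRC, which stabilizes mitochondrial mRNAs, of 0.36, with edgeR adjusted p of 0.0150 and 0.0159. Without silenced replicate 1 both calls were lost (edgeR adjusted p = 0.0739 and 0.0503), and that of ELAC2 also without silenced replicate 3 (0.0505). Regulators of mitochondrial transcription and biogenesis had 1 of 14 lower and 0 higher by edgeR and by DESeq2, with a median of -0.08 (1 lower and 1 higher at an unadjusted p under 0.05 in edgeR). Here too the share lower, 7.14%, was not above the 8.27% of all tested genes. The lower one was MYC, a transcription factor known for driving ribosome genes, with 290, 253 and 265 CPM in control and 241, 208 and 210 CPM in silenced libraries (log2 fold change -0.29, SE 0.0826, edgeR adjusted p = 0.0334). Its call was lost without control replicate 1 or 3 or silenced replicate 2 or 3, with edgeR adjusted p up to 0.0980. By qRT-PCR and western blot, the study itself reported no significant change of MYC after FAM83H-AS1 silencing. NRF1, GABPA, GABPB1 and YY1, the factors whose words were searched in the promoters, were not called, with log2 fold changes of -0.25, 0.09, -0.03 and -0.13.

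**Figure D5:**
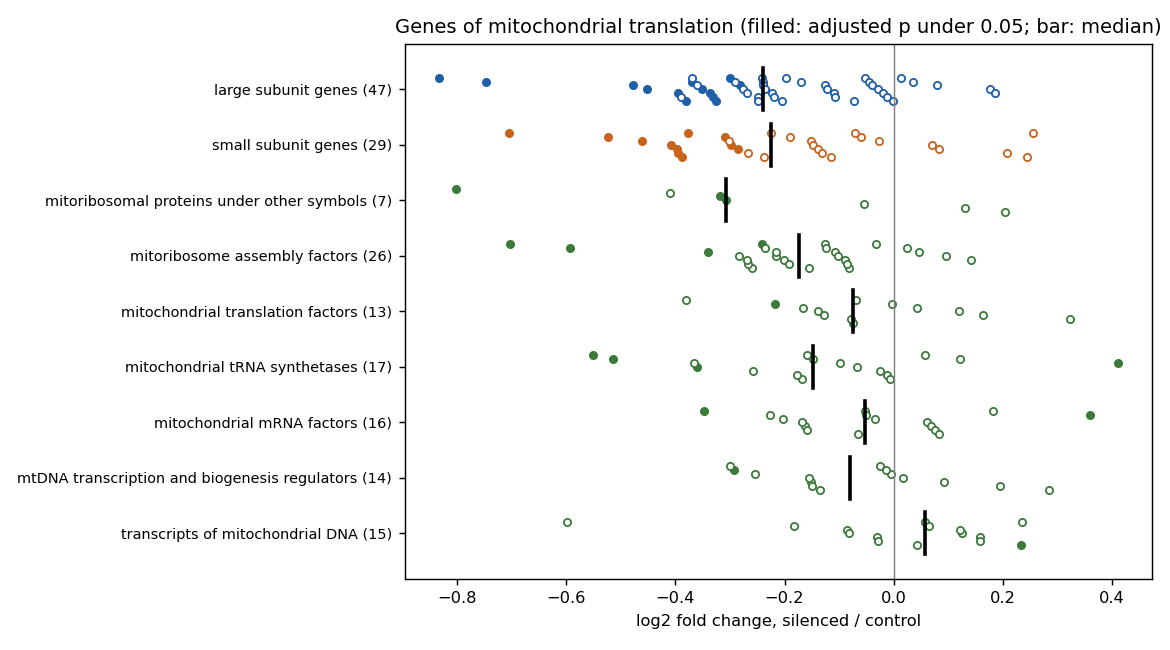
Log2 fold change (silenced over control) of each tested gene, in rows for the large and small subunit and for 7 lists of mitochondrial translation genes, with the number of genes in parentheses; filled points passed an adjusted p under 0.05 and the black bar is the median. The medians run from -0.31 for ribosomal proteins under other symbols to 0.06 for transcripts of mitochondrial DNA, and the subunit genes have no filled point above 0.

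The 2 groups most like the set were compared side by side. Cytosolic ribosomal protein genes were taken as rows of the type mRNA with a symbol starting with RPL or RPS and a number. This rule also matches symbols of RPS6K kinase genes and leaves out RPSA and the RPLP genes, so the group is approximate. The group had 14 of 92 tested genes lower and 1 higher, with a median of -0.18. Nuclear-encoded oxidative phosphorylation subunit genes had 21 of 84 lower and 1 higher, with a median of -0.22, close to the -0.24 of the mitochondrial ribosomal protein genes. The share called lower was 15.2% and 25.0% in these groups and 31.6% in the set. These differences were not tested, and the decrease was therefore not shown to be particular to mitochondrial ribosomal proteins.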

How the data were processed

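RNA of A549 cells was sequenced on an Ion Proton instrument. The authors mapped the reads with MapSplice and deposited raw counts per gene without normalization. The submitters' processing notes name GRCh37. The annotation, the strand setting and the treatment of reads with several matches are not given in the sources used here. Totals of 9738291 to 17742643 counts set the precision.

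Groups and replicate numbers came from the sample titles. The counts were tested with edgeR 4.0.16 in R 4.3.3 (filterByExpr, TMM, quasi-likelihood F test, Benjamini-Hochberg over 15250 genes), and a gene was called at an adjusted p under 0.05. Each SE was obtained as |log2 fold change| / sqrt(F). Permuting 3 against 3 libraries exactly gives no p below 0.1, so such values are not quoted. The fits were tested on simulated data. Alternatives were DESeq2 1.42.0, RLE size factors, library size only, 2 other filters (at least 1 count in all, or 10 in each library), mRNA rows only, the replicate number as a block, thinned counts, each library left out, an adjusted p under 0.01, a fold of 2 and subunits by structure.

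Named genes were the 8 called genes with the largest decrease (and increase, of which there were 0), those with the highest and lowest mean CPM, the 2 with the smallest change, MRPS18A, MRPS18B, MRPS18C, MRPS30, MRPS36, MRPL12, MRPL10 and MRPS12, at most 3 called genes per list, and the ribosomal proteins under other symbols. Exceptions are stated where they occur. MRPL11, MRPL27 and MRPL38 were added as the called genes of their structural groups, after their values were seen. RNR1, RNR2 and the searched factors were added for their roles, CD68 came from the marker list, and genes that overlap called genes were added beside SARS2. The genes, lists and words were chosen with earlier results of these data known. Transcripts and overlaps came from GENCODE 29 and promoters from RefSeq (GRCh38.p14), matched by symbol, and Python 3.11.15 with pandas 2.3.3 was used. No label names a batch, so none was fitted. A single-gene result of the tRNA synthetase list is not reported here.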

Additional observations from a re-analysis of the deposited data

How the results depend on the processing

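The median log2 fold change of the set, of the large and of the small subunit stayed within the spread between libraries in every alternative that gave one. The number of genes called lower was 4 at an adjusted p under 0.01 (2 large, 2 small), 0 with a fold over 2 in addition (0 large, 0 small), 31 with all genes of at least 1 count (20 large, a change by over 1.5 times), 26 in DESeq2, 28 with mRNA rows only, 25 with thinned counts and 19 with library size only. Leaving out a library gave 10 to 20 genes, of them 4 to 12 large and 6 to 8 small subunit genes, and a large minus small median between -0.0455 and 0.0317. Genes near 0 changed sign: MRPL45 (0.0328 with library size only, 0.00347 thinned, -0.0451 to 0.0446 without a library), MRPL41 (0.0245, 0.00685 and -0.0750 to 0.0620), MRPS18A (-0.169 to 0.0792 without a library) and MRP63 (-0.265 to 0.0949). The cause was not tested. With library size only, the calls of MRPL44, ICT1, CHCHD1, TUFM and MYC were lost, and that of ND2 with RLE size factors, 10 counts in every library or thinned counts. With the replicate number as a block, 29 genes were called, the 24 and 5 more (MRPL12 at an adjusted p of 0.0137), and AURKAIP1 (0.0405, lower) and DAP3 (0.0276, higher) were called too. With the group mean of each gene subtracted, the deviations in log2 CPM of same-numbered libraries correlated at 0.124, 0.149 and 0.0670. The deviations of each library correlated best with its own number in the other group. This is only a hint, since the labels state no pairing. The correlations are small, depend on each other once group means of 3 libraries are subtracted, and were not tested.

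With 3 libraries per group and SEs around 0.1, changes of the size of the median were often not detectable for a single gene, and genes with few counts or close copies, such as MRPS31 and MRPS36, are the least certain.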
